A study of Mus musculus with 30 samples.

Results

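Myc and the proteins of its Max network were followed in mammary carcinomas from c-Myc transgenic mice. The members were the 9 genes Myc, Mycn, Mycl, Max, Mxd1, Mxd4, Mxi1, Mnt and Mlx, listed by gene name. Each is represented by 1 probe with a single gene symbol, so 9 of the 16874 single-symbol probes, and 9 of the 9919 genes tested, are members. Each of 15 carcinoma RNA extracts was run on 2 of the 30 arrays, in channel 1 on one and channel 2 on its pair, and the other channel always held the same reference RNA. The labels do not name the make-up of that reference, the promoter behind the transgene, the strain, the age or any treatment, nor do they say whether extracts came from separate animals. Codes join a number to a letter: 579 stands on 5 extracts, 546 on 2, and 8 further numbers on 1 each. Of the arrays, the submitters described 25 under an epithelial to mesenchymal change and 5 under tumour progression. Both arrays of 550-A and of 561-B fall under tumour progression, as does 1 array of 595-A.

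Myc is a transcription factor that binds DNA only as a dimer with Max, and Max is therefore the hub of the network. Mycn and Mycl are close relatives of Myc that use the same partner in other tissues and at other stages. The Mxd proteins, Mxi1 and Mnt compete with Myc for Max and recruit corepressors to the same sites, and Mlx is a Max-like partner that dimerises with the glucose-responsive factors Mlxip and Mlxipl as well as with some Mxd proteins and Mnt. The shared binding site is the E-box, and Myc drives genes of growth, ribosome production and metabolism.

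The canonical E-box of the network, CACGTG, reads alike on both strands, and was searched in windows from 250 bases before to 50 after each gene start in RefSeq sequence of build GRCm38.p6. Of the 9 members 8 matched, Myc being the other, and 4 of these 8 held the E-box, against 7.15% of all 32851 promoter windows and 8.09% of all genes with a window. These 4 windows are shown because the E-box is the sequence the network itself binds. Each line gives the gene's own strand, 5′ to 3′, with the E-box in capitals.
Max: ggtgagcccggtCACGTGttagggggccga
Mlx: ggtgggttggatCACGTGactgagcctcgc
Mnt: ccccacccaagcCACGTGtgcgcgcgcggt
Mxd4: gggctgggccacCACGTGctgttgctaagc
The Max stretch lies at chr12:76962234-76962263 on the minus strand, with the E-box starting 3 bases before the gene start. That of Mlx lies at chr11:101087238-101087267 on the plus strand, 40 bases before the start, and that of Mnt at chr11:74830789-74830818 on the plus strand, 123 bases before it. That of Mxd4 lies at chr5:34187912-34187941 on the minus strand, 219 bases before the start. The windows of Mycn, Mycl, Mxd1 and Mxi1 did not hold these letters. A match describes sequence and was not tested as a binding site.

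Values are log2 ratios of the 2 channels, with the sign turned on arrays that had the extract in channel 2. Which channel was divided by which is unstated, so positive values are those on Myc's side and negative values lie opposite. Myc's side is likely that of more RNA in the extract than in the reference, from the transgene in the design alone, so Myc's own direction is no finding. Errors given as ± are standard errors from limma, a linear model fitted to all probes, over 15 extracts unless stated, and p-values were adjusted over all tested probes. Arrays held from 13434 to 21991 values, and deposited arrays of 1 orientation correlated at a median r of 0.564 over the tested probes, against -0.172 between orientations. As deposited, both arrays of an extract ran against each other in 13 of 15 extracts (lowest r -0.472), but at 0.0026 in 579-E and 0.0385 in 579-F. Over all tested probes the median of the means was -0.12 on arrays with the extract in channel 1, 0.39 in channel 2 and 0.13 over both, and 0.03 over both once each array's median was subtracted. Extracts are tissue RNA, in which a higher share of a cell type and more RNA per cell cannot be told apart.

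Limma set 6 of the 9 members apart from the reference at an adjusted p under 0.05, where 47.2% of all 12888 tested probes passed. Myc, Max, Mlx, Mxd4 and Mxd1 lay on the Myc side and Mycl on the other, while Mycn, Mxi1 and Mnt did not pass. Myc (3.16 ± 0.11, SE, n = 15 extracts), Max (2.10 ± 0.17), Mlx (0.56 ± 0.12) and Mycl (-0.68 ± 0.10) passed on a single side in both orientations, 4 of 9 members against 40.7% of all probes. The means of Mxd1 and Mxd4 changed side with the channel, so their calls rest on averages of opposed means. For Mxd4 the channel 1 mean did not itself pass (adjusted p = 0.208). Values within 0.0005 (log2) of a ratio between whole numbers up to 20 made up 33.6% of all values, but 0 of those of Myc, Max and Mycl, 10% for Mlx, 13.3% for Mxd4 and for Mxi1, 16.7% for Mxd1, 23.3% for Mnt and 25.0% for Mycn.

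**Figure D1:**
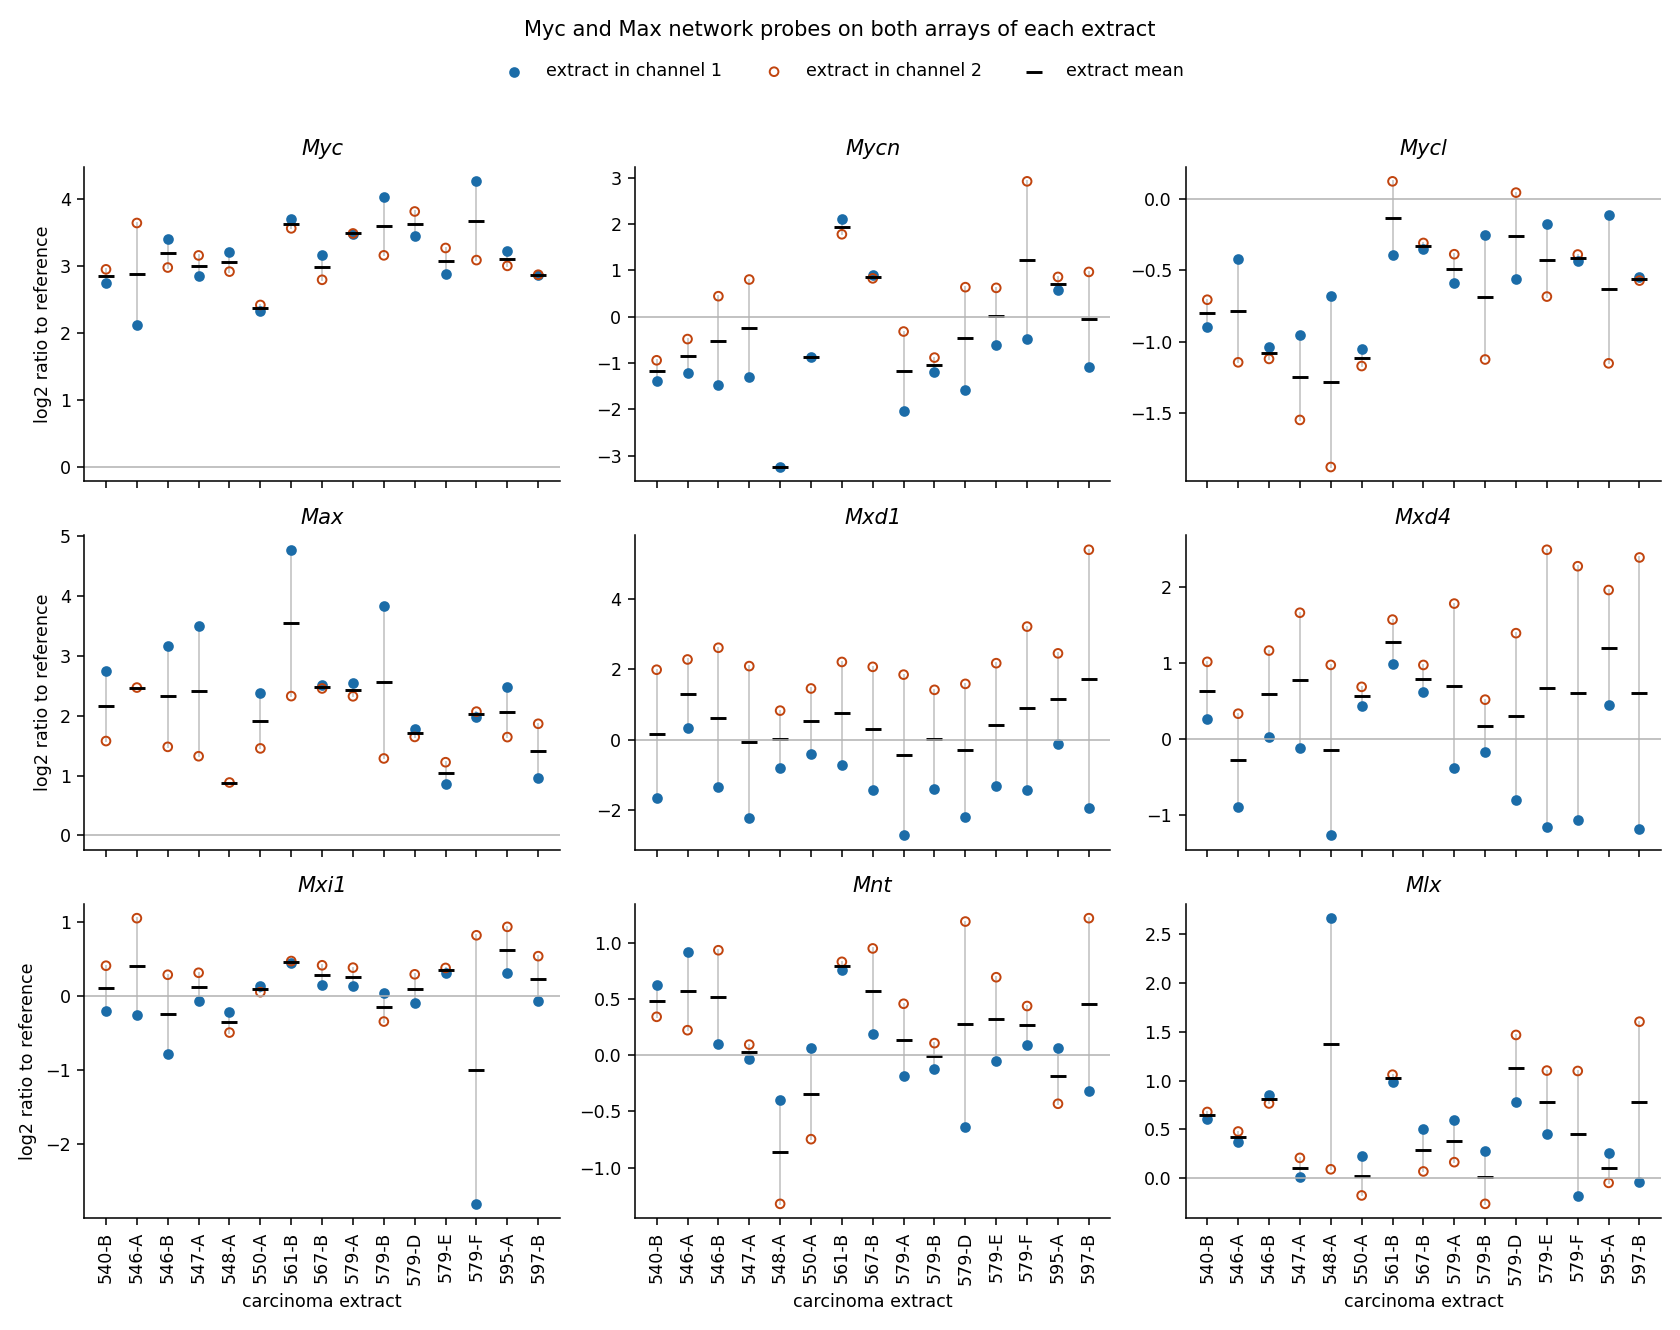
Log2 ratio to the reference (vertical axis, its range differing between panels) of the 9 network probes in each of the 15 carcinoma extracts (horizontal axis), with filled points for the array with the extract in channel 1, open points for channel 2 and a dash for their mean. Myc and Max are above 0 on every measured array, while for Mxd1 the open points lie above 0 in 15 of 15 extracts and the filled points in 1 of 15.

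Myc, the gene of the transgene, stood far from the reference in every extract, and the SD over extracts of 0.37 lay at percentile 17.4 of all probes. Extract means ran from 2.38 in 550-A over a median of 3.07 to 3.68 in 579-F, an average 8.95-fold difference from the reference. The lowest single array stood at 2.11 (546-A) and the highest at 4.27 (579-F), so all 30 arrays lay on 1 side. The same held for 2.25% of tested probes, a share in which a probe with any missing array cannot count. Only 0.295% of tested probes had a mean as large on that side. The mean was 3.18 ± 0.16 with the extract in channel 1 and 3.14 ± 0.12 in channel 2, and this probe's orientation difference of 0.04 ± 0.17 stood at percentile 3.9 of all probes by size. Whether the probe reads the transgene, the endogenous gene or both is unstated in the labels.

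Mycl, the Myc relative described from lung tumours, was on the opposite side in all 15 extract means, where 12% of tested probes (1552 of 12888) lay on 1 side throughout. It ran from -1.28 in 548-A over a median of -0.63 to -0.13 in 561-B (limma adjusted p = 3.94e-05), with -0.56 ± 0.10 and -0.80 ± 0.15 in the 2 orientations. Of the 30 single arrays 2 lay above 0, those of 561-B (0.12) and 579-D (0.04) with the extract in channel 2. Once array medians were subtracted the mean was -0.78 and 14 of 15 extracts stayed on the opposite side, 579-D lying at 0.02.

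Mycn, the relative known from neural tissue and neuroblastoma, spread most widely of the 9. Extract means ran from -3.25 in 548-A over a median of -0.47 to 1.94 in 561-B, with 5 of 15 above 0. The mean of -0.33 ± 0.29 did not pass (adjusted p = 0.385, 95% interval -0.95 to 0.29). The lowest value rests on the single measured array of 548-A, with the extract in channel 1, and over the extracts with both arrays the mean was -0.06 ± 0.25. Orientation mattered here, the channel 1 mean of -0.86 ± 0.31 (adjusted p = 0.0227) standing against 0.55 ± 0.28 in channel 2 (adjusted p = 0.0962), a difference of -1.24 ± 0.29 (adjusted p = 0.003).

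Max, the shared partner, lay on the Myc side on all 28 measured arrays. Extract means ran from 0.89 in 548-A over a median of 2.17 to 3.55 in 561-B, an average 4.28-fold difference (limma adjusted p = 2.45e-08), and 1.21% of tested probes had a mean as large on that side. The values of 546-A (2.47) and 548-A (0.89) each rest on the array with the extract in channel 2, 1 of the missing values being the placeholder. Without these extracts the mean was 2.16 ± 0.16. Max was larger with the extract in channel 1 (2.58 ± 0.28) than in channel 2 (1.74 ± 0.14), a difference of 0.84 ± 0.30 (adjusted p = 0.03). The highest array, 4.78 in 561-B, and the next, 3.84 in 579-B, were both of channel 1, and their paired arrays stood at 2.33 and 1.29. The E-box at the gene start of Max is among the sequences printed above.

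Mxd1, a Max partner known from differentiating cells and a competitor of Myc, averaged 0.47 ± 0.16 (limma adjusted p = 0.0187), but no orientation gave that value. With the extract in channel 1 it stood at -1.30 ± 0.21, below 0 in 14 of 15 extracts (adjusted p = 5.69e-05). In channel 2 it stood at 2.24 ± 0.25, above 0 in 15 of 15 (adjusted p = 1.53e-06). The orientation difference of -3.54 ± 0.35 was larger in size than that of 96.5% of tested probes. In 597-B, the highest extract mean (1.73), the paired arrays stood at -1.94 and 5.40. Only 546-A was above 0 on both, at 0.34 and 2.28.

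Mxd4, a relative of Mxd1, behaved alike to a smaller degree. Its mean was 0.56 ± 0.12 (limma adjusted p = 0.000659). It stood at -0.28 ± 0.19 with the extract in channel 1, which did not pass (adjusted p = 0.208). In channel 2 it stood at 1.41 ± 0.18 (adjusted p = 4.14e-06), an orientation difference of -1.69 ± 0.28 (adjusted p = 0.000142). It was above 0 on both arrays in 6 of 15 extracts, those being 540-B, 546-B, 550-A, 561-B, 567-B and 595-A, with 561-B highest at 0.99 and 1.57. In 579-E, 579-F and 597-B the paired arrays lay furthest apart, at -1.16 and 2.48, -1.06 and 2.27, and -1.18 and 2.38.

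Mxi1, another Max-binding repressor, stood close to the reference, at 0.08 ± 0.11 (adjusted p = 0.567, 95% interval -0.15 to 0.32). Means ran from -0.99 in 579-F to 0.63 in 595-A, and its lowest array was -2.81 in 579-F, whose paired array stood at 0.82. In channel 2 alone it passed at 0.37 ± 0.12 (adjusted p = 0.0168), against -0.20 ± 0.20 in channel 1, and the mean turned to -0.01 once array medians were subtracted. Mnt, the Max partner thought to oppose Myc in proliferating cells, stood at 0.20 ± 0.12 (adjusted p = 0.172, 95% interval -0.04 to 0.45). It ran from -0.86 in 548-A to 0.79 in 561-B, and without 546-A and 548-A it passed at 0.25 ± 0.10 (adjusted p = 0.0474). Over all extracts Mnt did not pass after median subtraction (0.11, adjusted p = 0.41). Nor did it in channel 1 (0.07, adjusted p = 0.651) or channel 2 alone (0.33, adjusted p = 0.131).

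Mlx, the partner that links the network to glucose sensing, lay modestly on the Myc side in all 15 extract means. Of tested probes 12% lay on 1 side throughout. Mlx ran from 0.01 in 579-B over a median of 0.46 to 1.38 in 548-A (limma adjusted p = 0.000766). Single arrays lay above 0 for 13 of 15 extracts in channel 1 and for 12 of 15 in channel 2. The 2 orientations gave 0.56 ± 0.17 and 0.55 ± 0.16, and the orientation difference of 0.0047 ± 0.24 was the smallest of the 9. The high value of 548-A came from 1 array, at 2.66, its pair standing at 0.09. After array medians were subtracted the mean was 0.46, with 595-A below 0 at -0.28.

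**Figure D2:**
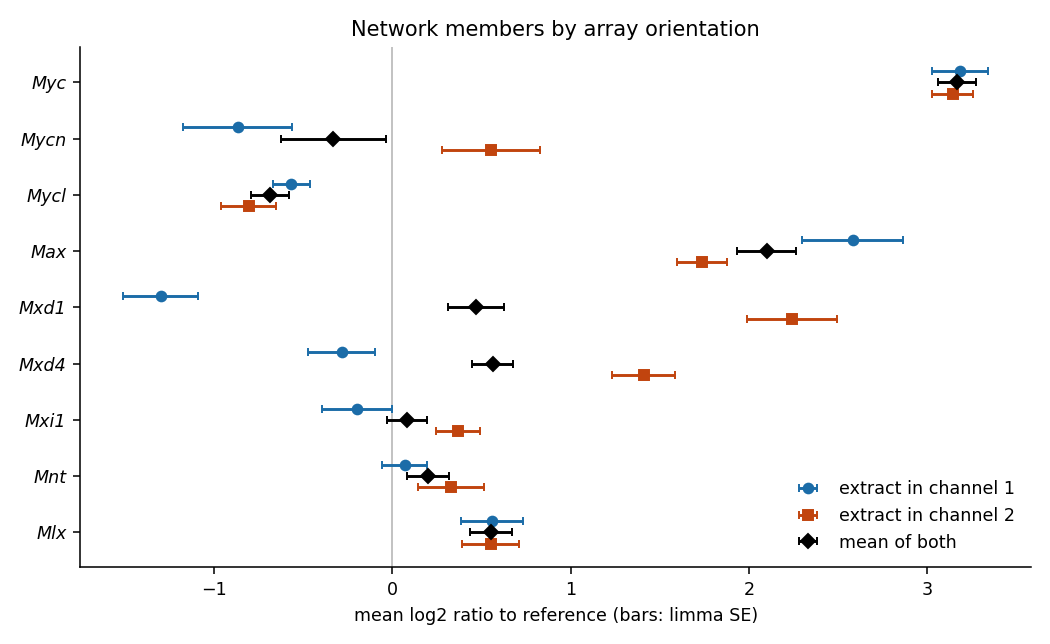
Mean log2 ratio to the reference (horizontal axis) of the 9 network probes over the arrays with the extract in channel 1 (circles), in channel 2 (squares) and over extract means (diamonds), with bars for the limma standard error. The 3 marks nearly coincide for Myc and Mlx, keep to 1 side for Mycl, Max and Mnt, and fall on both sides of 0 for Mycn, Mxd1, Mxd4 and Mxi1.

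The dye term itself passed for Mycn, Max, Mxd1 and Mxd4, 4 of 9 members, where 50% of tested probes (6446 of 12888) did, so such dependence was common on these arrays. Its median size over all probes was 0.62. In the mean over both arrays a constant dye effect cancels, except in the extracts measured on 1 array.

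The next comparison asked whether extracts differed in the network by more than the noise between the paired arrays of 1 RNA. By limma's F-test 0 of 9 members passed, against 6.73% of all probes, and 1 of 9 (Mycn, unadjusted p = 0.00503) at an unadjusted p under 0.05, against 22.0%. Mycn stood at an adjusted p = 0.0633, and at 0.0115 once array medians were subtracted, but at 0.209 without 546-A and 548-A and 0.465 without a dye term. Its high extracts were 561-B (2.10 and 1.78 on the paired arrays), 567-B (0.90 and 0.83) and 595-A (0.57 and 0.86), the extracts above 0 on both arrays. The mean of 579-F, 1.21, came from arrays at -0.49 and 2.92. The order of extracts is therefore not resolved for any of the 9 members. For the others the adjusted p was 0.57 for Myc, 0.504 for Mycl, 0.575 for Max and from 0.693 to 0.936 for the rest.

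Extract 561-B gave the highest mean of Mycn, Max, Mxd4 and Mnt and the value of Mycl closest to 0. Its array level was also the highest as the mean of both medians over all probes (0.47), with 0.415 in channel 1, the highest of that orientation, and 0.518 in channel 2, where 5 extracts lay higher. With medians subtracted it remained the highest extract for Mycn (1.47) and Max (3.09), but no longer for Mxd4 (0.81, against 0.82 in 595-A) or Mnt (0.33, against 0.55 in 579-D), nor was its Mycl (-0.60) the closest to 0 (0.02 in 579-D). Extract 548-A gave the lowest mean of Mycn, Mycl, Max and Mnt, and its array medians were -0.40 and -0.04. It held 16587 and 13434 values, the latter the fewest of all arrays. The Mycn value of 548-A rests on the channel 1 array alone and its Max value on the channel 2 array alone. Each is the orientation in which that gene read lower (channel 1 minus channel 2 -1.24 for Mycn and 0.84 for Max). After subtraction 548-A remained lowest for Mycn (-2.85, on 1 array) and Mnt (-0.64). It was no longer lowest for Mycl (-1.06, against -1.38 in 546-B) or Max (0.93, against 0.90 in 579-E). The part of the array level in these extremes was not tested beyond the subtraction, and that of the orientation was not tested.

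No correlation between the paired arrays over extracts passed after adjustment in any of the 9 members. Over all extracts Mycn had the highest, with Pearson r = 0.523 (permutation p = 0.069, adjusted over 9 members 0.621) and Spearman rho = 0.648 (permutation p = 0.0192, adjusted 0.173) over 13 extracts, and r = 0.463 without the 2 farthest extracts. Those of the other members ran from r = -0.296 for Mxd4 to 0.318 for Mycl. These values moved with single extracts: without the 2 farthest, Myc went from r = 0.208 to 0.615 and Max from 0.128 to -0.462.

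Levels of Myc were set against those of the other 8 members over the 15 extracts, which share the reference RNA. The largest relation was with Mycl (Pearson r = 0.564, permutation p = 0.0283, adjusted over 8 relations 0.227; Spearman rho = 0.55, permutation p = 0.0358, adjusted 0.287), and it stood at r = 0.454 without the 2 extracts farthest from the median of Myc. With array medians subtracted it was 0.589 (permutation p = 0.0212, adjusted 0.169), falling to 0.31 without the 2 farthest extracts, and Mxd1 then ran against Myc (r = -0.517, permutation p = 0.0485, adjusted 0.194; rho = -0.621, permutation p = 0.0151, adjusted 0.121; r = -0.473 without the 2 farthest). No relation passed after adjustment. Max against Myc gave r = 0.317 (permutation p = 0.25, adjusted 0.465) and rho = 0.214 (permutation p = 0.444, adjusted 0.781), with r = 0.387 without the 2 farthest extracts. Among 715 genes that differed between extracts, those whose extract means were most like Myc were Bckdk (r = 0.694), a kinase of branched-chain amino acid breakdown, Slc7a5 (0.674), a carrier of large neutral amino acids, and S100a1 (0.673), a calcium-binding protein. These are descriptions over 15 extracts, picked as the highest of many. The order of extracts for Myc itself was not resolved by the F-test (adjusted p = 0.57).

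Extracts of number 579, the only number with more than 2 extracts, were set against those of the other 9 numbers. The fit took each extract as a replicate, though the labels do not say whether the 5 came from separate animals. Its intervals therefore cannot be read as a spread between animals. Myc stood at 3.49 in 579-A, 3.60 in 579-B, 3.63 in 579-D, 3.07 in 579-E and 3.68 in 579-F, a mean of 3.49 ± 0.24 (SD, n = 5). In the other 10 extracts it ran from 2.38 to 3.63 with a mean of 2.997 ± 0.316 (SD). The 579 extracts were mostly higher, but 561-B at 3.63 and 579-E at 3.07 made the groups overlap. The difference of 0.50 ± 0.20 (95% interval 0.08 to 0.92) did not pass (limma adjusted p = 1). None of the 9 members passed, and Myc was the 1 member at an unadjusted p under 0.05. Over all probes limma called 0 (0%), with 3.57% at an unadjusted p under 0.05. Mycl was -0.46 ± 0.16 (SD) against -0.80 ± 0.39, a difference of 0.34 with an interval from -0.11 to 0.79. Mxd1 was 0.11 ± 0.55 against 0.65 ± 0.59, a difference of -0.54 with an interval from -1.20 to 0.13. For Mlx and Mnt the differences were under 0.01 in size, with intervals from -0.55 to 0.53 and -0.54 to 0.53.

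**Figure D3:**
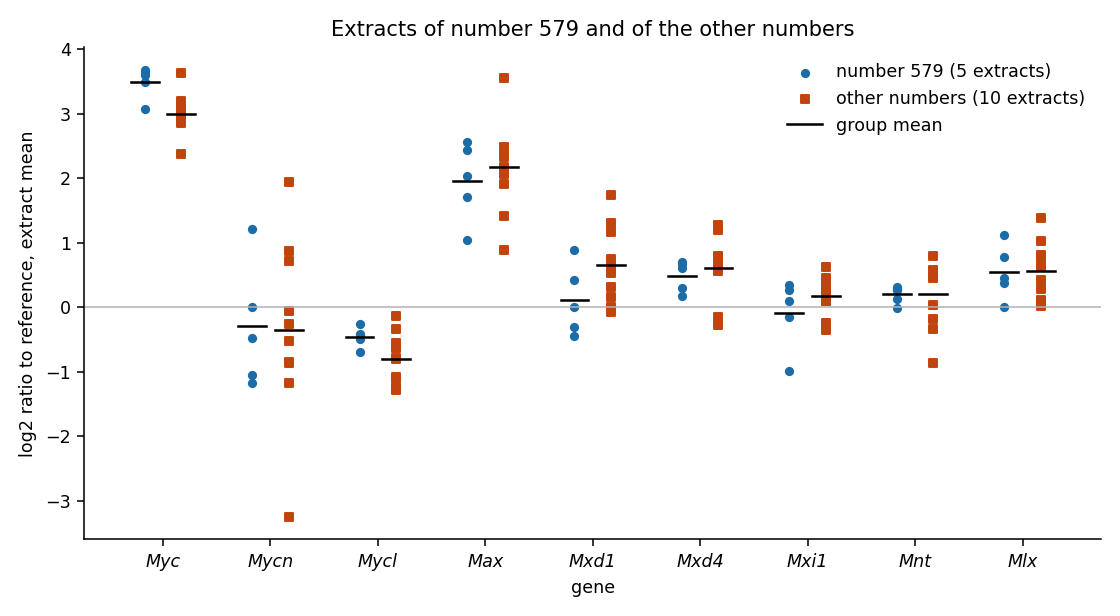
Extract means of the log2 ratio to the reference (vertical axis) for the 9 network genes (horizontal axis), with circles for the 5 extracts of number 579, squares for the 10 extracts of the other numbers and black lines for group means. The groups overlap for every member, and the lines stand furthest apart for Mxd1 (0.11 against 0.65) and Myc (3.49 against 2.997).

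The submitters' own split set the 2 extracts described under tumour progression, 550-A and 561-B, against the 12 described under the epithelial to mesenchymal change on both arrays. By limma 0 of 9 members passed, and 0 of 9 had an unadjusted p under 0.05, while 0.00776% of all probes passed and 4.07% had an unadjusted p under 0.05. These 2 extracts lay far apart within the network. Myc stood at 2.38 and 3.63 in them, Mycn at -0.87 and 1.94, and Max at 1.92 and 3.55. The Mycn value of 550-A rests on 1 array, with the extract in channel 1, the orientation in which Mycn read lower (channel 1 minus channel 2 -1.24). Their mean difference from the 12 was -0.19 for Myc (95% interval -0.90 to 0.52), 1.09 for Mycn (-0.73 to 2.92) and 0.74 for Max (-0.30 to 1.78), and without 561-B those of Mycn and Max turned to -0.31 and -0.08.

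The surrounding pathway was read from lists of textbook genes, chosen with earlier results of these data known, so their directions are not independent evidence. Of all tested probes 30.4% passed as positive and 16.9% as negative, with a median of 0.13. Among the other network factors, Mxd3, the Mxd protein of dividing cells, lay on the opposite side at -0.92 ± 0.17, below 0 in 15 of 15 extracts, with -1.43 and -0.19 in the 2 orientations. Mlxipl, the glucose-responsive partner of Mlx, passed at 0.32 ± 0.13 (adjusted p = 0.0482) but stood at -0.64 in channel 1 and 1.29 in channel 2, and no longer passed after median subtraction (0.0854). Mga, a large Max partner, did not pass (0.19 ± 0.15), and Mlxip was not among the probes tested.

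Of 11 tested coactivators and elongation factors 6 passed as positive in both orientations and 1 as negative, leaving 4 that did not, with a median of 0.53. The acetyltransferase gene Kat2a stood at 0.90 ± 0.12, the helicase genes Ruvbl1 and Ruvbl2 at 0.73 ± 0.10 and 0.67 ± 0.12, and the chromatin subunit gene Actl6a at 0.58 ± 0.13. The scaffold gene Trrap stood at -0.32 ± 0.10, with 0.025 in channel 1 and -0.67 in channel 2. Of 8 tested genes of the corepressor complexes that Mxd proteins and Mnt recruit, Sap30 (0.29 ± 0.10) and Rbbp7 (-0.33 ± 0.13) passed and 6 did not. The list median was -0.02. Sap30 turned side with the channel, at -0.19 in channel 1 and 0.77 in channel 2. Rbbp7 stood at 0.05 in channel 1, close to 0, and at -0.71 in channel 2. After median subtraction Sap30 no longer passed (adjusted p = 0.0659), while Rbbp7 did, at -0.42 (adjusted p = 0.00864).

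Genes of Myc protein turnover passed for 4 of 9, all on the Myc side and in both orientations. They were Fbxw7, the ubiquitin ligase subunit that marks Myc for destruction, at 1.20 ± 0.14, Usp36, a nucleolar deubiquitinase, at 1.06 ± 0.14, Skp2, another ligase subunit, at 0.78 ± 0.12 and the phosphatase gene Ppp2ca at 0.25 ± 0.08. Ppp2ca stood at 0.49 in channel 1 but at only 0.0027 in channel 2. The list median was 0.15. After median subtraction 3 passed on the Myc side and Stub1 (-0.30) on the opposite one, while Ppp2ca no longer passed (adjusted p = 0.19). Of 6 tested Myc-binding proteins 4 passed as positive and 1, Sp1 (-0.28 ± 0.10), as negative, with a median of 0.45. Zbtb17, through which Myc represses genes, stood at 0.79 ± 0.13, Mycbp at 0.53 ± 0.09 and Yy1 at 0.36 ± 0.08, while Paf1 (0.53 ± 0.13) turned side with the channel.

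Of 16 tested textbook genes activated by Myc 12 passed as positive and 1 as negative, leaving 3 that did not, with a median of 0.76, and 11 of the 12 kept their side in both orientations. The spermidine synthase gene Srm stood at 1.31 ± 0.13, the DNA repair gene Apex1 at 1.25 ± 0.11 and the nucleoside diphosphate kinase gene Nme1 at 1.06 ± 0.12. Ccnd2, the gene of cyclin D2, was the exception at -2.64 ± 0.25, below 0 in 15 of 15 extracts. Of the 13 tested genes of this list with a RefSeq window 6 held CACGTG, among them Apex1, whose window holds 3, the one upstream of the gene start being shown (chr14:50924913-50924942, plus strand, 24 bases before it).
Apex1: gcgctccagaacCACGTGggggcggagccc
Of 9 tested genes repressed by Myc 6 passed as negative and 1 as positive, leaving 2 that did not, with a median of -0.77, and 0 of the 7 with a window held CACGTG, where the share over all genes is 8.09%. The growth arrest gene Gas1 stood at -2.49 ± 0.20, the stress gene Gadd45a at -1.46 ± 0.19 and the cell cycle inhibitor gene Cdkn1a at -0.95 ± 0.21, while Cebpa, a factor of adipocyte and epithelial differentiation, stood at 1.81 ± 0.12. By the F-test 5 of these 9 genes differed between extracts and 2 of the 16 activated ones, where 6.73% of all probes did. Among 5 genes known as targets of Mlx with its glucose-responsive partners, the lipid synthesis gene Fasn (1.49 ± 0.14) and Arrdc4 (0.40 ± 0.14) passed as positive and Txnip (-0.57 ± 0.17), a brake on glucose uptake, as negative, leaving 2 that did not, with a median of 0.40. After median subtraction Arrdc4 no longer passed (adjusted p = 0.101).

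**Figure D4:**
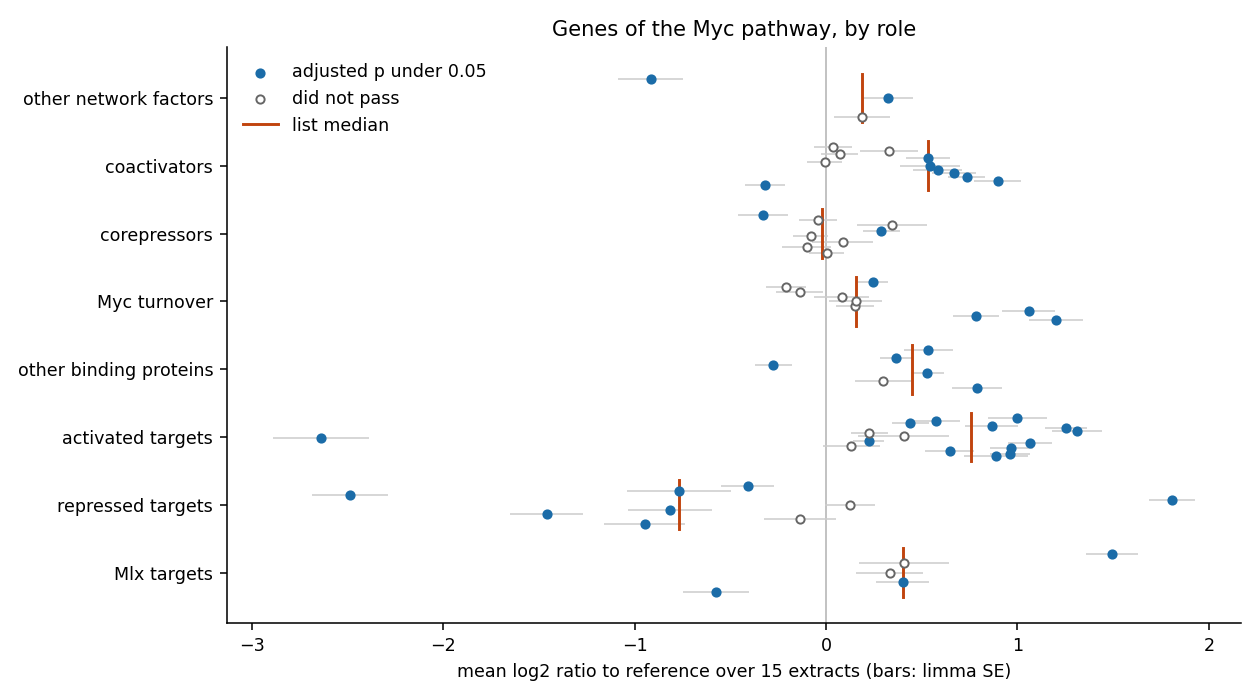
Mean log2 ratio to the reference over 15 extracts (horizontal axis) of the tested genes in 8 lists of the Myc pathway (rows), with grey bars for the limma standard error, filled points for genes past an adjusted p of 0.05, open points for the rest and a vertical line for each list's median. The median is 0.76 for activated targets, with Ccnd2 alone at -2.64, and -0.77 for repressed targets, with Cebpa alone at 1.81.

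The label of mammary carcinoma was read against marker genes. All 9 tested epithelial and milk markers, such as Epcam and Csn3, lay on the Myc side (median 2.90). Of 4 fibroblast markers 3 passed on the opposite side, and their mean ran from -3.74 in 579-D to 1.14 in 546-A. All 4 tested endothelial, 3 of 4 tested macrophage and 1 of 3 tested adipocyte markers passed as positive. Of all tested probes 30.4% passed as positive and 16.9% as negative. The adipocyte marker that passed was Fabp4 (2.06), while Adipoq (0.20) and Lpl (0.12) did not. Of 4 genes listed for lymphocytes 3 passed as negative, Cd3g (-0.61), Ms4a1 (-1.39) and Ptprc (-2.40). Ptprc is carried by leukocytes in general, macrophages included, and does not mark lymphocytes alone. Of the skeletal muscle markers 0 of 4 passed, their mean reaching 4.38 in 546-A. After median subtraction 2 macrophage markers passed as positive and 1, Cd68 (-0.32), as negative. The part of these cell types in the network's values was not tested.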

How the data were processed

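The authors' deposited table holds log2 ratios of the 2 channels of 30 arrays for 22800 probes. Their scale is judged from the values alone; background correction and normalization are unstated in the labels. The value 16.61, present 8839 times, was taken as missing, as were 95268 blank cells. Arrays with the extract in channel 2 were turned, and the 2 arrays of an extract averaged. Tests covered the 12888 probes with values on at least 24 of 30 arrays and on every extract, with limma 3.58.1 in R 4.3.3 (lmFit, eBayes, Benjamini-Hochberg over all of them, threshold 0.05): 15 extract means against 0, an F-test between extracts on single arrays with a dye term, number 579 against the others, and the submitters' 2 descriptions. The reference is 1 RNA, so its spread is left out, and a p-value reflects the spread among these 15 extracts alone, part of which may be technical. Array numbers limit the precision. Gene names came from the platform annotation, promoter sequence from RefSeq (GRCm38.p6). Members and lists were chosen with earlier results of these data known. Every member is reported. Of each list up to 4 genes of largest mean past the threshold were named, with up to 2 on the other side; Mga and Stub1 were named after their values were seen, and added then were the dye term test and the call in both orientations. Scripts were tested on simulated data. Correlations used 100000 permutations, two-sided.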

Additional observations from a re-analysis of the deposited data

How the results depend on the processing

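The number of arrays limits these values, signal intensities were not read, and which channel was the numerator is not settled. Against the reference, 6088 probes passed, and 4047 with values required on all 30 arrays, where fewer probes were tested. Of the members, those whose mean turned side with the channel were Mycn (0.555 in channel 2), Mxd1 (-1.297 in channel 1), Mxd4 (-0.282 in channel 1) and Mxi1 (-0.198 in channel 1, and -0.009 after median subtraction). Myc, Mycl, Max and Mlx kept their side and their call under every alternative that could be run for them. The F-test called 867 probes, 393 when the dye term was dropped and 472 when 546-A and 548-A were left out. For number 579 all counts were 0, and uncalled member differences turned sign: Mycn (0.052) to -0.374 without 546-A and 548-A and -0.478 in channel 1; Mxd4 (-0.113) to 0.417 in channel 2; Mnt (-0.005) to 0.106 after median subtraction and 0.368 in channel 2; and Mlx (-0.009) to 0.102, 0.077 and 0.241 after median subtraction, without 546-A and 548-A and in channel 2. Leaving out 1 of its extracts gave ranges from -0.325 to 0.273 for Mycn, -0.365 to 0.014 for Max, -0.036 to 0.047 for Mnt and -0.152 to 0.127 for Mlx.

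For tumour progression 1 probe passed, 0 after median subtraction, with 595-A added or in either channel alone, and from 3 to 4 without 1 of the 2 extracts, where the lone extract is assumed to vary like the others. Its uncalled member differences turned sign in channel 1 for Mycl (-0.147), Mnt (0.397) and Mlx (0.033), and in channel 2 for Mxd1 (-0.461), Mxd4 (-0.284) and Mxi1 (-0.076). Leaving out 1 extract gave -0.816 to 0.44 for Myc, -0.309 to 2.499 for Mycn, -0.416 to 0.563 for Mycl, -0.08 to 1.557 for Max, -0.571 to 0.566 for Mnt and -0.574 to 0.427 for Mlx. The cause of these turns was not tested.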
